A study of Equus caballus with 4 samples.

Results

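Complement components and regulators were examined in equine satellite cells (ESC), which are stem cells of skeletal muscle that form new fibers. The genes were *c3*, *cfb*, *c1r*, *c1s* and *c2*, which encode components, and *cfi*, *serping1*, *cd55* and *cd59*, which encode inhibitors. A probe belonged to them if it was not a control spot and carried 1 of these 9 names in the array files. Of the 43603 probes on the array, 13 did, for 6 of the 9 genes. No probe carried the name *c3*, *cd55* or *cd59*, but 4 further probes carried the provisional name LOC100057656, which the RefSeq gene table gives as the gene number of *cd55*. They are described as *cd55* and are kept out of the counts by name.

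Complement is a cascade of plasma and membrane proteins that marks and lyses microbes and damaged cells and draws in leukocytes. In the classical pathway the proteases C1r and C1s, bound to C1q, cleave C4 and C2, and in the alternative pathway factor B joins C3b. Both routes form convertases that cleave C3. The inhibitors keep the cascade off host cells. C1 inhibitor (*serping1*) blocks C1r and C1s, factor I (*cfi*) cleaves C3b and C4b, CD55 speeds the decay of the convertases, and CD59 blocks the final pore. Liver makes most plasma complement, and many other cells, muscle cells and fibroblasts included, make part of it.

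The cells came from m. semitendinosus of young stallions and were on day 3 of differentiation. HMB-treated cells were kept with 50 µM HMB (β-hydroxy-β-methylbutyrate, a metabolite of leucine) for 24 h and received 3 mM H2O2 during the last 1 h, whereas control cells received the same H2O2 and no HMB, so both groups were exposed to peroxide. Each of 4 two-color arrays carried RNA of HMB-treated cells in Cy5 and of control cells in Cy3, all in the same dye orientation and on 1 slide, so treatment and dye cannot be told apart. The methods describe the choice of the best culture for the study, so the 4 arrays need not stand for 4 horses, and the control carries replicate number 1 in the labels of all arrays. Should the controls be 1 RNA, their own spread is missing from the errors.

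A log2 ratio below is HMB-treated over control, after background subtraction and lowess normalization within the array, and a fold change (FC) is its antilog. Cy3 was well above background at 57.6 to 60.6% of the probes and Cy5 at 55.2 to 61.8%, and over the tested probes the correlation r between 2 arrays was 0.837 to 0.92. A probe was tested if the same channel was well above background on all 4 arrays, and it was called at a limma adjusted p of 0.05 or less with an FC of 1.3 or more. The RNA is from whole cultures, so more cells that express a gene and more RNA per cell cannot be told apart.

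Transcripts of the proteases *cfb*, *c1r* and *c1s* and of the inhibitor *serping1* were higher in HMB-treated ESC. All 11 tested probes with a member's name were called higher, against 12.1% of the 24669 tested probes on the array (28.6% were called in either direction, 16.4% being lower). These probes cover *cfb*, *c1r*, *c1s*, *cfi* and *serping1*. The 5 probes of *c1r* overlap, as do the 3 of *c1s*, so the 11 are not separate measurements. With *cfi* left aside, because it had only a bound, the FC ran from 4.14 to 29.2 with 1 probe per gene. Each of those genes was higher on 4 of 4 arrays. Among the 8319 gene names with a tested probe, of which 10.0% were called higher, *cfb* ranked 11, *c1r* 77, *c1s* 91 and *serping1* 120 by the log2 ratio from the top, while *cfi* has no rank because its control signal was not above background. Of the 11 probes, 2 (that of *cfi* and 1 of *c1s*) passed the filter only through Cy5, so their calls are no support. The tested probes do not cover every member, since *c3* and *cd59* had no value and *c2* was too dim.

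The probes that carry these measurements are shown for *cfb*, for *c2*, for the inhibitors, and for a bright and a dim *c1s* probe. All are sequences of 60 bases from the array files, written in the 5′ to 3′ direction of the array design, with positions on EquCab1. The capitals in the first *c1s* probe mark the 19 bases that it shares with the other 2 overlapping *c1s* probes. No run longer than 10 bases was shared on the same strand by probes of different members, *cd55* included.
cfb: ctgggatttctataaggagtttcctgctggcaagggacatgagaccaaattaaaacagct
c2: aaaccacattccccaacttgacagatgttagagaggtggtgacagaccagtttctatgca
c1s, bright probe: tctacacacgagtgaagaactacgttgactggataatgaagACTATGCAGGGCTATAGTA
c1s, dim probe: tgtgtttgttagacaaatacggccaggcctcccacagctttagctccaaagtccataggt
serping1: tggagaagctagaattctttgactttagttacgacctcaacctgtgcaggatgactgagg
cfi: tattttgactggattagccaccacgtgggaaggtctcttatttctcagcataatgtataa

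Among the components, *cfb*, the catalytic subunit of the alternative pathway convertase, had the largest ratio of the tested members. Its single probe lies at chr20:25012198-25012257 on the plus strand, on transcript ENSECAT00000013066. The log2 ratio was 4.94, 4.95, 5.07 and 4.51 on arrays 1 to 4, so the arrays lay close together, array 4 lowest. The mean was 4.87 ± 0.25 (SD, n = 4), an FC of 29.2 (SE 0.10 on the log2 scale, limma adjusted p = 1.47e-06). Both dyes were well above background on every array. The Cy3 signal was 136, 164, 210 and 150 and the Cy5 signal 4174, 5053, 7048 and 3423 (arbitrary units), so the lowest HMB-treated signal was above the highest control signal.

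The protease C1r, which activates C1s, was measured by 5 probes at chr6:34780186-34780249 on the minus strand, on ENSECAT00000023112. Each probe is shifted by 1 base from the next and all share 56 bases, so they are 1 measurement repeated. The brightest gave a log2 ratio of 2.47, 3.17, 3.28 and 2.57, with arrays 2 and 3 above arrays 1 and 4. The mean was 2.87 ± 0.41 (SD, n = 4, FC 7.32, limma adjusted p = 4.46e-05). The mean log2 ratios of the other 4 lay between 2.67 and 2.83. The Cy3 signal of the brightest probe was 274, 237, 273 and 210 and the Cy5 signal 1517, 2129, 2655 and 1246, and the channels did not overlap.

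The protease C1s, which cleaves C4 and C2, had 4 probes on the plus strand of chromosome 6, on ENSECAT00000010255. The brightest, at chr6:34763654-34763713, gave a log2 ratio of 2.19, 2.96, 2.77 and 2.56. Array 1 was lowest and array 2 highest, and the mean was 2.62 ± 0.33 (SD, n = 4, FC 6.13, limma adjusted p = 3.01e-05). Its Cy3 signal was 89.3, 79 and 120 on arrays 1 to 3 and 56.8 on array 4, against a Cy5 signal of 408, 612, 818 and 334. The probe at chr6:34763674-34763733 gave 2.25, 2.97, 3.32 and 3.55, with a mean of 3.02 ± 0.57. Its Cy3 was well above background on 3 arrays but not on array 4. This probe thus passed the filter only through Cy5, and its call is no support. The probe at chr6:34763695-34763754 gave 2.15, 2.73, 3.38 and 2.64, with a mean of 2.73 ± 0.51. These 3 probes overlap, and all were called higher (highest limma adjusted p = 0.000119).

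The last *c1s* probe, at chr6:34756178-34756237, lies apart from the others on the same transcript and was dim. Its log2 ratio was 0.50, 0.30, 0.81 and 0.08, with a mean of 0.42 ± 0.31 (SD, n = 4). Cy3 was not well above background on any array and Cy5 was on 3, so the probe was not tested and no fold is given. Its ratio cannot be set against the ratios of the other 3 probes. The files do not say which exon a probe reads, and whether these probes read the same RNA forms was not tested.

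Complement C2, the substrate of C1s and the classical pathway counterpart of factor B, had 1 probe at chr20:25004867-25004926 on ENSECAT00000005079. The log2 ratio was 0.60, 1.05, 2.69 and 1.56, with a mean of 1.48 ± 0.90 (SD, n = 4). All 4 arrays were above 0 but spread widely, and array 3 was the one array on which Cy5 was well above background. Cy3 was not on any. The probe was not tested, and no fold is given. In the RefSeq gene order *c2* and *cfb* are direct neighbors.

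**Figure D1:**
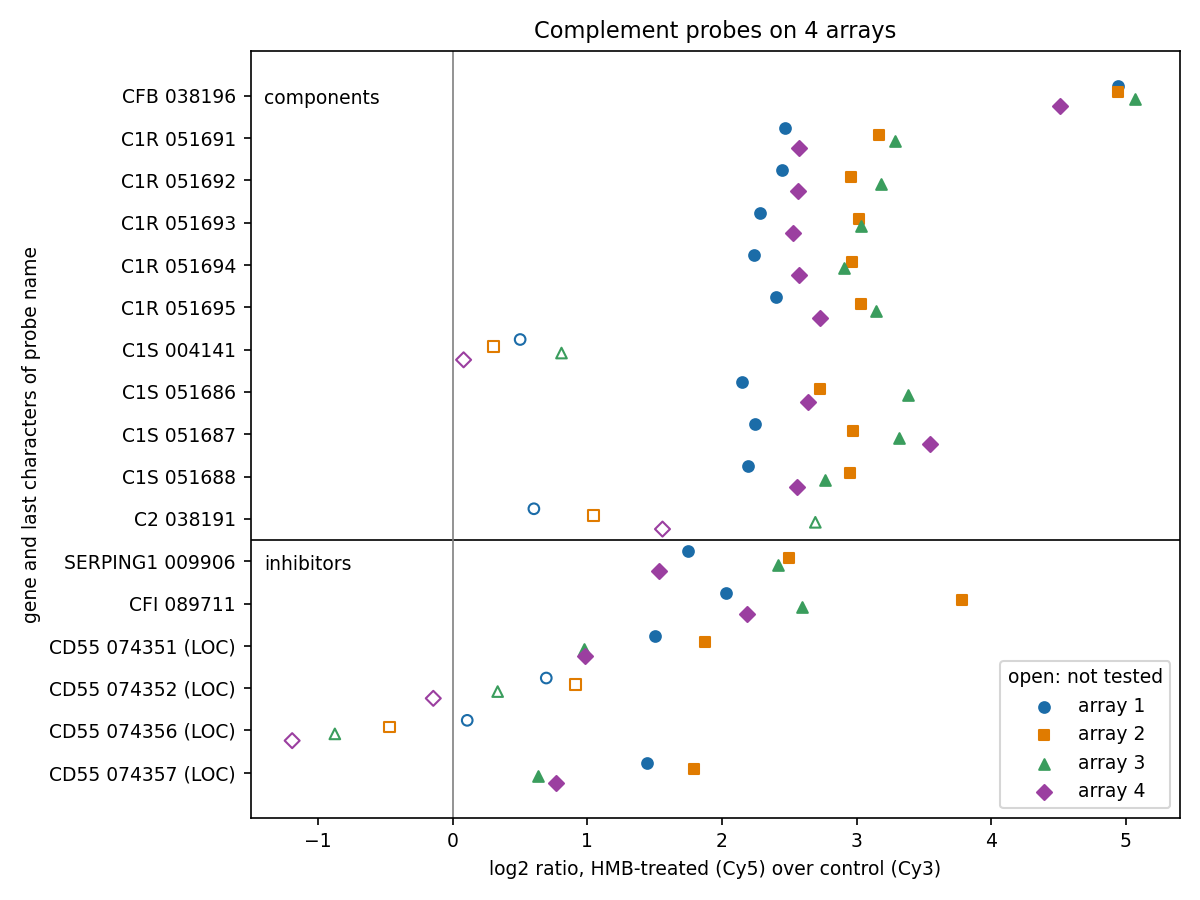
The log2 ratio of HMB-treated over control (x axis) is shown for every probe of the members (y axis, gene and last characters of the probe name), with 1 symbol per array, components above the line and inhibitors below it; open symbols are probes that were not tested. The *cfb* probe sits between 4.51 and 5.07, the overlapping *c1r* and *c1s* probes between 2.15 and 3.55, and the dim *c1s* probe between 0.08 and 0.81; the probes marked LOC are those of *cd55* named through its gene number.

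Among the inhibitors, *serping1*, which encodes the inhibitor of C1r and C1s, was higher as well. Its probe on ENSECAT00000011379 is placed at chrUn:243407586-243408565, a span of 980 bases and so longer than the probe itself. The log2 ratio was 1.75, 2.50, 2.42 and 1.53, with arrays 2 and 3 again above arrays 1 and 4. The mean was 2.05 ± 0.48 (SD, n = 4, FC 4.14, limma adjusted p = 0.000301). The Cy3 signal was 149, 120, 158 and 108 and the Cy5 signal 502, 678, 842 and 313, so both were measured on every array and did not overlap. Over the 122 gene names called higher with a log2 ratio of 2 or more, the median was 3.06, 3.27, 3.27 and 2.93, with the same arrays above the others. That set was chosen by these same ratios and includes *serping1* and the other tested members by name, so it is not a separate comparison.

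The *cfi* probe, for the protease that inactivates C3b, lies at chr2:101446005-101446064 on ENSECAT00000014752. The log2 ratio was 2.03, 3.78, 2.60 and 2.18, with array 2 above the other 3. Cy5 was well above background on 4 arrays and Cy3 on 0, so the probe passed the filter only through the HMB-treated channel and had to differ. The Cy3 signal was 16.1, 9.15, 19.2 and 12.5 and the Cy5 signal 65.7, 126, 116 and 56.8. The log2 ratio had a mean of 2.65 ± 0.79 (SD, n = 4), and no p-value is given because the probe had to differ. For a bound, the deposited background subtraction and lowess were used, and array intensities were then brought to 1 distribution. Against the lowest Cy3 level well above background, the transcript was at least 4.12-fold higher in HMB-treated cells. Some Cy3 signals above that level were not well above background, so the bound is not strict. This bound did not hold with other handling of the background, since the mean log2 ratio was 0.60 with normexp and 0.89 with no background correction.

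The inhibitor *cd55*, a membrane protein that most cells carry, had 4 probes on the minus strand of chromosome 5 under its provisional name. The brightest, at chr5:22024753-22024812 on ENSECAT00000017789, gave a log2 ratio of 1.5, 1.87, 0.98 and 0.99. Here arrays 1 and 2 were above arrays 3 and 4, and the mean was 1.33 ± 0.43 (SD, n = 4, FC 2.52, limma adjusted p = 0.00115). The Cy3 signal was 74.8, 66.8, 123 and 97.2 and the Cy5 signal 212, 244, 242 and 193, with no overlap. The probe at chr5:22025883-22025942, on ENSECAT00000017807, gave 1.44, 1.79, 0.63 and 0.77, with a mean of 1.16 ± 0.55 (FC 2.23, limma adjusted p = 0.00459), and kept the same split of the arrays.

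The other *cd55* probes were too dim to be tested and did not give one direction. At chr5:22024813-22024872 the log2 ratio was 0.70, 0.91, 0.34 and -0.14, with a mean of 0.45 ± 0.46 (SD, n = 4). At chr5:22025655-22025866 it was 0.11, -0.47, -0.87 and -1.19, with a mean of -0.61 ± 0.56. A probe without a gene name shares 29 bases with the brightest *cd55* probe and gave 1.56, 2.13, 1.04 and 1.32 (mean 1.51 ± 0.46, limma adjusted p = 0.000859). Because the probes of *cd55* differ in direction, its rise rests on the tested 2. The unnamed probe has no position and overlaps the brightest in sequence, so it is not separate support.

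**Figure D2:**
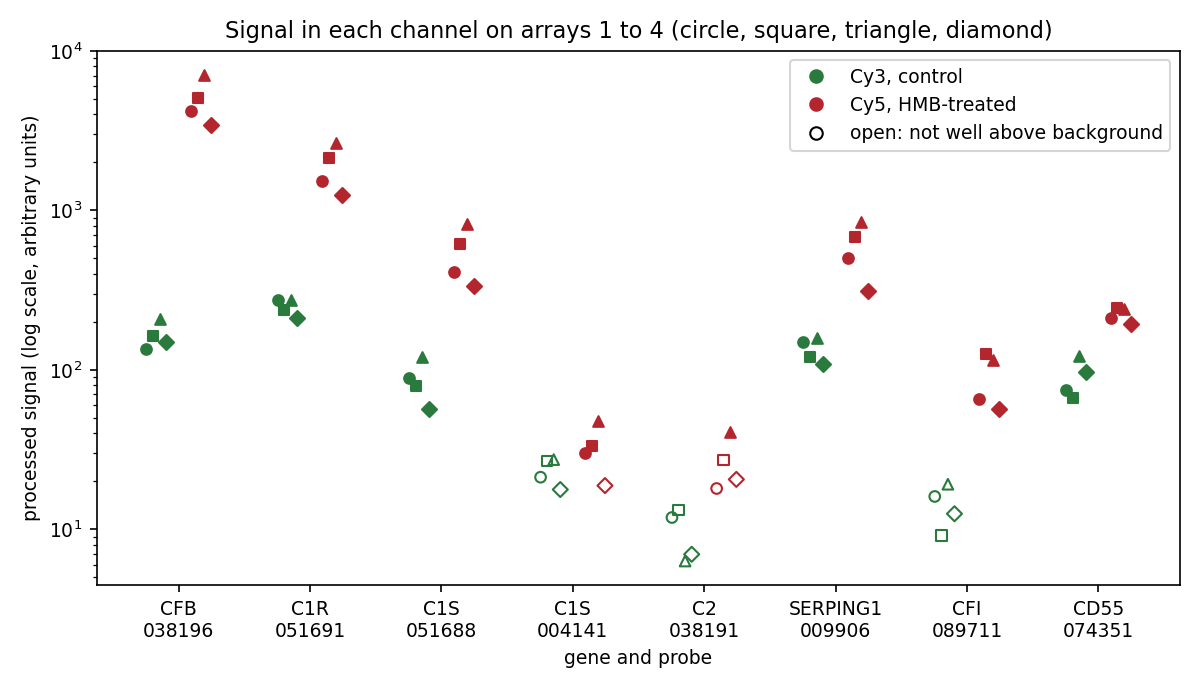
The processed signal (y axis, log scale, arbitrary units) of 1 probe per gene, and of the dim *c1s* probe, is shown for control in Cy3 and HMB-treated in Cy5 on arrays 1 to 4 (circle, square, triangle, diamond); open symbols are not well above background. The *cfb* signals go from 136 to 210 in control to 3423 to 7048 in HMB-treated cells, and the control signals of *cfi* and *c2* are all open; heights of different probes cannot be compared as levels.

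Components and inhibitors were then set against each other over all probes, as a description, since probes of 1 gene are not replicates. The 9 tested component probes had a median log2 ratio of 2.79 (range 2.62 to 4.87), and the 2 tested inhibitor probes 2.35 (2.05 and 2.65). The median over all tested probes was -0.07. The component median minus the inhibitor median was 0.39, -0.17, 0.67 and 0.71 on arrays 1 to 4, with a mean of 0.40 ± 0.41 (SD, n = 4). The difference was thus no larger than its spread between arrays and was negative on array 2, where *cfi* was highest. With the untested probes, 11 for components, the component median was 2.73 and the lowest value 0.42. Of the 9 tested component probes, 5 are 1 *c1r* measurement repeated. With 1 probe per gene, the component median was 2.87, the inhibitor median 2.35 and the difference 0.52. The inhibitor median rests on *cfi*, which had only a bound: with *cfi* at its bound of 2.04 on the log2 scale, the difference of the medians was 0.74, and it was 1.1 with the *cd55* probes counted as inhibitors. It was 1.15 with normexp background correction and 1.20 with none.

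Few other complement genes could be tested, and none of them was called higher. A list of 56 other complement genes was written from general knowledge, of which 37 had a probe. Of these, 7 could be tested, and 0 were called higher, 3 lower and 4 neither, with a median log2 ratio of -0.08. Among all tested gene names 10.0% were called higher and 17.2% lower, so 0 of 7 called higher is near the share over all genes. Of the 37, 23 were not well above background in either channel on any array. Among these were *c1qa* and *c1qb*, chains of C1q, *mbl2* and *masp1*, which start the lectin pathway, and *c6*, *c8a*, *c8b* and *c9*, which form the final pore.

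The genes called lower were *cfh*, *c1qbp* and *fcn3*. For *cfh*, factor H, the plasma cofactor of factor I, the log2 ratio was -0.62, -0.75, -0.02 and -0.26, with a mean of -0.41 ± 0.33 (SD, n = 4, limma adjusted p = 0.0382). The call of *cfh* was lost without array 1 (limma adjusted p = 0.11), without array 2 (0.122) and without array 4 (0.0618). For *c1qbp*, a C1q-binding protein that resides mainly in mitochondria, it was -0.39, -0.33, -0.58 and -0.56 (mean -0.47 ± 0.12, limma adjusted p = 0.00294), but 0.070 with median centering in place of lowess. For *fcn3*, a ficolin of the lectin pathway, it was -0.53, -0.80, -0.43 and -0.98 (mean -0.68 ± 0.25, limma adjusted p = 0.00287), with Cy5 well above background on 1 array. It passed the filter only through Cy3, so the size of its ratio is uncertain and its call is no support. None of the 3 was called with normexp or with no background correction.

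Of those not called, *c1qc*, the third C1q chain, had a log2 ratio of 0.72, 0.41, 0.86 and -0.31, with array 4 alone below 0 (mean 0.42 ± 0.52, limma adjusted p = 0.109). Without array 4 it was called higher, with a mean of 0.66 (limma adjusted p = 0.00794). The collectin *colec12* had a mean of 0.17 ± 0.09, properdin (*cfp*), which stabilizes the alternative convertase, -0.08 ± 0.13, and clusterin (*clu*), an inhibitor of the final pore, -0.03 ± 0.18. Clusterin turned to 0.40 and was called with median centering. The substrate of C1s, *c4a*, was named here after its values were seen: it was not tested, with Cy3 well above background on 2 arrays and Cy5 on 3, and gave 1.3, 1.75, 1.58 and 0.70 (mean 1.33 ± 0.46).

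**Figure D3:**
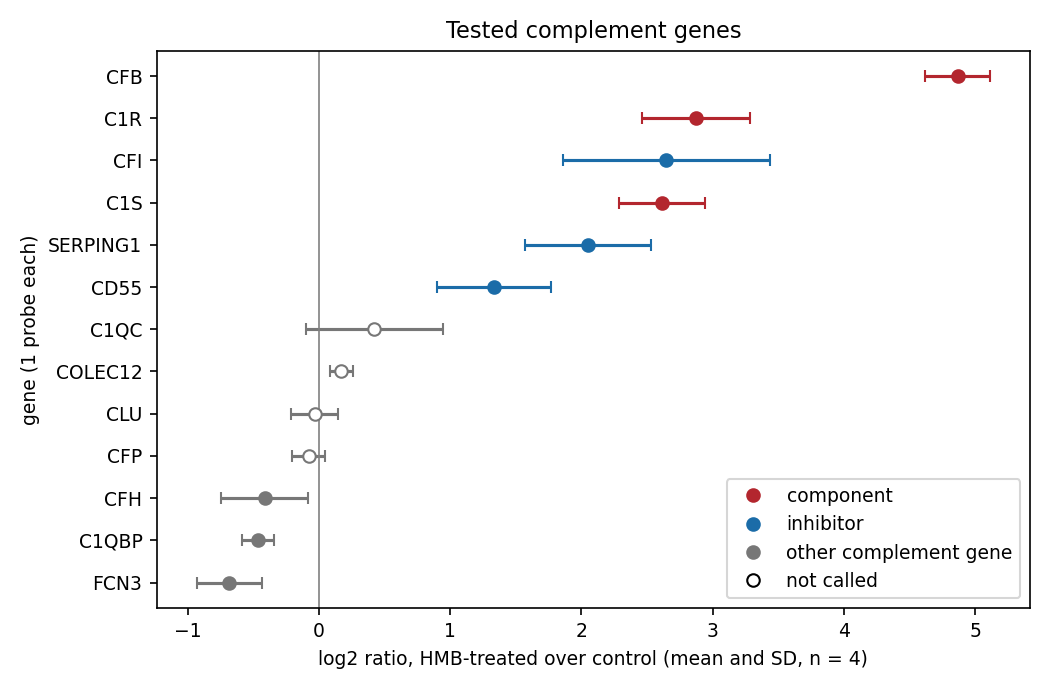
The mean log2 ratio of HMB-treated over control is shown for each tested complement gene with 1 probe each (y axis), with bars of 1 SD over 4 arrays; open symbols were not called. The components and inhibitors lie between 1.33 and 4.87, and the other complement genes between -0.68 and 0.42.

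The genes next to the members on their chromosomes were read from the RefSeq gene order, 3 coding genes on each side, after the members' values had been seen. Of 24 neighbors, 13 were tested, with 4 called higher, 2 lower and 7 neither, beside 10.0% called higher and 17.2% lower among all tested gene names. *c1r* and *c1s* are direct neighbors, and the next gene after *c1r*, *c1rl*, which encodes a C1r-like protease, gave 0.84, 1.08, 2.08 and 1.08 (mean 1.27 ± 0.55, limma adjusted p = 0.00322). Cy3 was well above background on 1 array there, so *c1rl*, 1 of the 4 called higher, passed the filter only through Cy5. The size of its ratio is uncertain and its call is no support. On the far side of *c1s*, *lpcat3* gave a mean of 0.26 ± 0.14 and was not called. Beside *serping1*, *ube2l6*, an enzyme that conjugates ISG15, had a mean of 2.90 ± 0.22 (limma adjusted p = 5.42e-06). On the other side of *serping1* the direct neighbor *ypel4* was not tested. After it, *clp1* had -0.16 ± 0.05 and was not called, and *zdhhc5* had -0.51 ± 0.09 and was called lower (limma adjusted p = 0.00147). Beside *cfb*, *nelfe* had 0.24 ± 0.05, and beside *cfi*, *gar1* had -0.34 ± 0.45, and neither was called.

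Markers of muscle and of other cells moved in the same comparison, in which 10.0% of all tested gene names were called higher and 17.2% lower. Of 12 muscle markers, 9 were tested, with 0 called higher and 7 lower. For example, *des* had a log2 ratio of -1.22 ± 0.29 and *myf5* -1.49 ± 0.34, while *myog* had 0.03 ± 0.22. The summed signal of the muscle markers was 173164 to 195756 in control and 66550 to 105397 in HMB-treated cells. Of 8 tested fibroblast markers, 4 were called higher, among them *pdgfra* (1.49 ± 0.26) and *dcn* (0.77 ± 0.18), and 0 lower. The other 4 were not called: *col1a2* (-0.23 ± 0.34), *col3a1* (0.06 ± 0.29), *fbn1* (0.05 ± 0.21) and *postn* (0.37 ± 0.99). Some dimmer probes of *col3a1* were called higher. The summed signal of the fibroblast markers was 1094038 to 1325644 in control and 960549 to 1570275 in HMB-treated cells. Their part in the rise of the complement genes was not tested. Of 12 monocyte and macrophage markers, 3 were tested: *cd68* was called higher (0.88 ± 0.20), *fcer1g* lower (-0.50 ± 0.12) and *cd14* neither (0.20 ± 0.19). Their summed signal was 4217 to 5048 in control and 4461 to 6639 in HMB-treated cells, and *aif1*, *itgam*, *laptm5* and *tyrobp* were not above background on any array. No endothelial or hepatocyte marker could be tested, and *cdh5*, *pecam1*, *vwf*, *apoa1* and *ttr* were not above background on any array.

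The size of each ratio, but not its direction or call, depended on how the background was handled. For *cfi* the kept call is no support, since its probe passed the filter only through Cy5. With normexp background correction the mean log2 ratio was 3.94 for *cfb*, 2.32 for *c1r*, 1.43 for *c1s*, 1.3 for *serping1*, 0.71 for *cd55* and 0.60 for *cfi*, and with no background correction 4.34, 2.64, 1.87, 1.62, 0.91 and 0.89. The dim *cfi* thus moved most. Scaling to the spike-in RNA moved the median of all tested probes from -0.07 to -0.47, and relative to 0 *cfb* was then 4.46, *c1r* 2.47, *cfi* 2.24, *c1s* 2.21, *serping1* 1.64 and *cd55* 0.93.

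**Figure D4:**
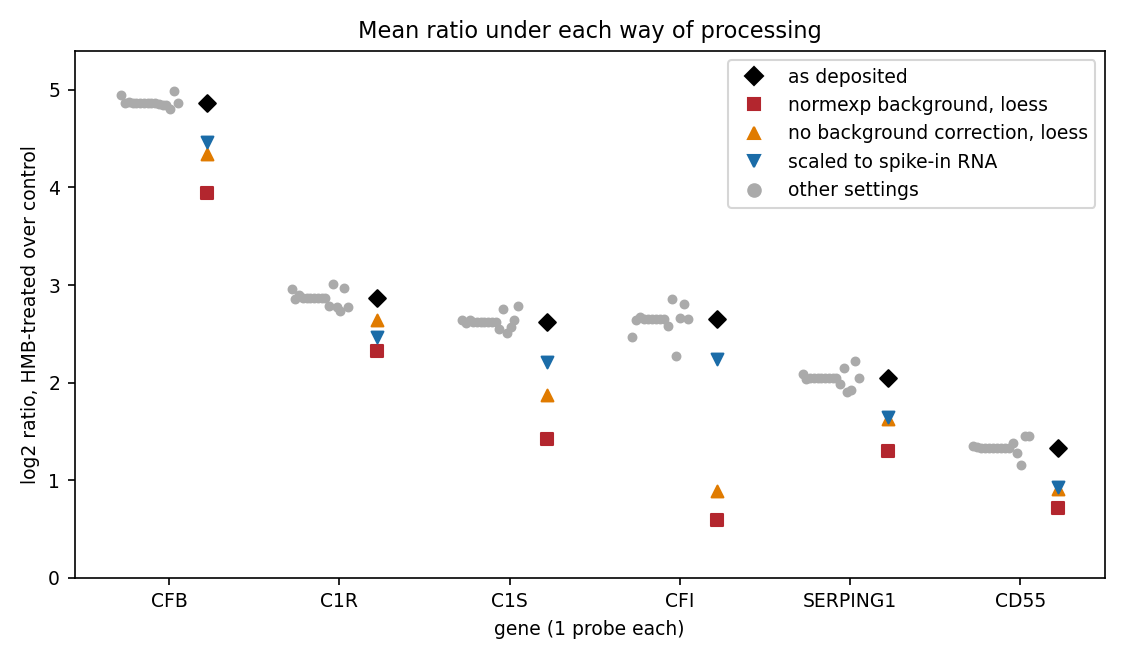
The mean log2 ratio of HMB-treated over control (y axis) of 1 probe per gene (x axis) is shown as deposited and under each other way of processing, single arrays left out included. All values are above 0; with normexp *cfb* is at 3.94 and *cfi* at 0.60, against 4.87 and 2.65 as deposited.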

How the data were processed

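RNA of HMB-treated (Cy5) and control cells (Cy3) was hybridized together to each of 4 Agilent horse arrays, whose probes have 60 bases and EquCab1 positions. The deposited scanner files hold intensity values that the authors' Feature Extraction software (version 10.10.1.1 in the file headers) had background-subtracted and normalized by linear and lowess steps. The deposited log10 ratios of Cy5 over Cy3 were multiplied by 3.3219 to give log2 ratios, and the authors' table of log10 values differed from them by at most 3.96e-05. Lowess removes a shift shared by all genes, and signals at background have surrogate values, so a ratio of a dim probe is uncertain or only a bound.

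Controls and the spots flagged by the scanner software as uneven or as outliers (13 to 35 per array) were left out, and spots of a probe were averaged. The number of saturated spots was 0. The test was limma 3.58.1 in R 4.3.3 (package data.table, version 1.17.8), with an intercept, empirical Bayes moderation and p-values adjusted by Benjamini-Hochberg over every probe tested. The probe needed a ratio on at least 3 arrays. A gene was given by its tested probe of the highest mean intensity. A bound sets the mean Cy5 level against, on each array, the higher of the probe's own Cy3 level and the lowest level well above background; it is open to dye bias. The number of arrays limits the precision. The labels call the arrays biological replicates but do not tie them to animals; where they share a culture, the p-values measure only the spread between these samples.

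All members were named with every probe; of the other complement genes, those called and up to 5 tested but not called, by mean intensity. The members, lists and tests were chosen with earlier results of these data known. The alternatives were 2 background corrections with loess (normexp with an offset of 50, or none), median centering, scale normalization, spike-in scaling, a GC correction, the authors' table, no or both-channel filters, marked spots kept, limma's treat, the methods' t-test with Benjamini-Hochberg, trend and robust moderation, array weights and leaving out each array. The tests were tried on simulated data.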

Additional observations from a re-analysis of the deposited data

How the results depend on the processing

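The 11 tested complement probes with a member's name were called higher under every alternative that kept them; the number was 9 with a filter on both channels, which dropped *cfi* and 1 *c1s* probe, and 13 with *cd55* named through its gene number, an alternative chosen after seeing the data. Leaving out each array gave 11 to 11. With no filter on dim probes, all 13 probes were tested and 11 called, the probe of *c2* and the dim *c1s* probe not being called. No member gene with a tested probe changed direction or lost its call under the alternatives that tested it. The kept calls of the *cfi* probe and of 1 *c1s* probe are no support, because both passed the filter only through Cy5. The difference between the component and inhibitor medians, 0.44 over the means of the arrays, was 1.15 with normexp, 1.20 with no background correction and 1.1 with *cd55* included; leaving out each array gave 0.33 to 0.65. Of the other complement genes, 3 were called as deposited, 0 with normexp, with no background correction and with treat, and 5 with spike-in scaling; leaving out each array gave 2 to 3. Median centering turned *clu* to 0.40 and *c1qbp* to 0.070. Over all probes, 7046 were called (42.5% higher), against 3538 with normexp (55.0% higher), 4439 with no background correction (60.1%), 16517 with spike-in scaling (8.51%) and 2822 with treat (54.6%); the methods' t-test with Benjamini-Hochberg gave 5030, and median centering gave 52.5% higher. Leaving out each array gave 6637 to 7151. For the moved values the cause was not tested. Each ratio pairs both RNAs of 1 array, so the test pairs by array, while a pairing by culture is not known. Depth limits *c2*, *cfi* and the dim *c1s* probe, whose control signals were not above background.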
